A study of Mus musculus with 6 samples.

Results

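The genes described here encode enzymes that cut the extracellular matrix and the proteins that hold these enzymes in check. They are the matrix metalloproteinases Mmp2, Mmp14 and Mmp15, the tissue inhibitors Timp1, Timp2, Timp3 and Timp4, the secreted proteinases Adamts1 and Adamts2, and the membrane-anchored inhibitor Reck. They were chosen by name for their function, with earlier results of these data known. They make up 10 of the 17121 genes in the count table, and all 10 were among the 13040 genes with enough reads to be tested. RNA had been sequenced from left ventricles of 3 cardiomyocyte-specific NCoR1 knockout (CMNKO) mice and 3 littermate control (LC) mice, all of the C57BL/6 background and 2 months old, with 1 library per mouse. CMNKO mice carried floxed NCoR1 alleles and an αMHC-Cre transgene, whose promoter is active in cardiomyocytes, so that the other cells of the ventricle keep NCoR1. No source used here gives the alleles of the LC mice. The libraries are called CMNKO 16, CMNKO 17, CMNKO 18, LC 15, LC 25 and LC 26 after the mice.

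The matrix between heart cells is turned over by zinc-dependent proteinases. Matrix metalloproteinases are made as inactive precursors, and Mmp14, which sits in the cell membrane, activates Mmp2 on the cell surface with Timp2 as an adaptor. The Timp proteins bind active metalloproteinases and block them, and Timp3, which itself binds to matrix, also inhibits several Adam and Adamts proteinases. Adamts1 cleaves large proteoglycans such as versican, and Adamts2 removes the amino-terminal propeptide of fibrillar procollagens.

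Depth and sample structure bear on every value below. Library totals ran from 6319488 to 8752609 counts. Levels are given as CPM, counts per 1000000 counts of a library after TMM scaling, a correction for differences in RNA composition, and 1 count was worth 0.111 to 0.161 CPM. Ncor1, the deleted gene, had 50.5, 51.3 and 42.4 CPM in CMNKO 16, 17 and 18, against 110.6, 102 and 90.7 CPM in LC 15, 25 and 26 (log2 fold change -1.07, adjusted p = 0.00845 by the quasi-likelihood test of edgeR, with p-values adjusted by the Benjamini-Hochberg method). LC 25 and LC 26 carry later library numbers than the other 4 libraries, and the labels do not call this a batch. These 2 libraries stood apart on the first principal component of log2 CPM, which held 48.7% of the variance. Mitochondrially encoded protein genes took 34.9% and 31.5% of their counts, against 25.6% to 26.9% in the other 4 libraries. A fit with a term for the library series, called the series term below, compares the 3 CMNKO mice with LC 15 alone, and its values are given beside the main ones. Its p-values and intervals take LC 15 to vary as the CMNKO mice and as LC 25 and LC 26 do among themselves.

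All 10 genes had a positive log2 fold change of CMNKO over LC, and none passed the test. Their median was 0.81 on the log2 scale, against 0.0012 over all tested genes. By the edgeR test at an adjusted p under 0.05, 0 of the 10 were called in either direction, where 0.268% of all tested genes were called higher and 0.337% lower. At an unadjusted p under 0.05, 8 of the 10, all but Mmp15 and Timp4, were higher in CMNKO mice, where 10.1% of all tested genes were. This number was 4 without CMNKO 16, 5 without LC 25 and 4 without LC 26. In these fits, in that order, 1829 of 13180, 1773 of 13439 and 1517 of 13247 tested genes had such a p in either direction. With all 6 libraries 2463 of 13040 had one. DESeq2 called 3 of the 10 higher at an adjusted p under 0.05, namely Adamts2, Mmp2 and Mmp14, and 1.65% of all tested genes higher and 1.12% lower. In 5 of the 10, Mmp2, Mmp14, Timp1, Adamts2 and Reck, every CMNKO library lay above every LC library, which held for 11.2% of all tested genes. In tissue RNA of this kind, fewer cells of a type and less RNA per cell cannot be told apart.

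The split among the controls ran through nearly the whole group of genes. LC 15 was the highest LC library in 9 of the 10 genes, the exception being Mmp14, and LC 25 or LC 26 was the lowest of all 6 libraries in each of the 10. LC 25 and LC 26 minus LC 15 came to a median of -0.88 on the log2 scale over the 10 genes, against 0.0038 over all tested genes. With the series term the median log2 fold change was 0.24, all 10 values were smaller, and 8 stayed above 0. By edgeR in that fit 0 of the 10 passed the adjusted threshold, and 1, Mmp14, was higher at an unadjusted p under 0.05, where 3.51% of all tested genes were. Without LC 15, where genotype and library series cannot be told apart, 8 of the 10, all but Timp1 and Timp4, passed the adjusted test as higher, but so did 11.8% of all genes tested in that fit, with 7.67% lower. Among the CMNKO mice, CMNKO 16 was the highest library of all in 7 genes and CMNKO 18 in 2, and LC 15 was the highest in Timp4.

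**Figure D1:**
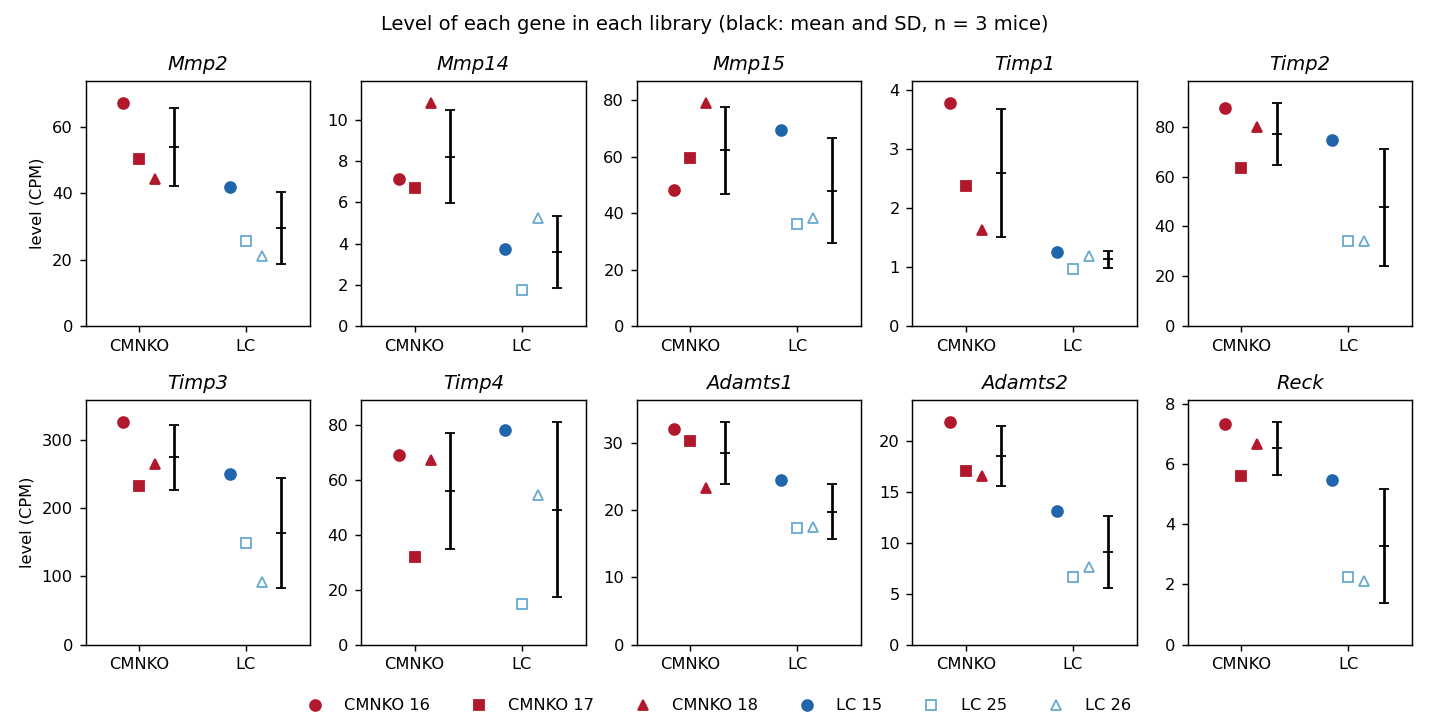
Level of each of the 10 genes in each library, in CPM, with CMNKO mice on the left and LC mice on the right of each panel. Points are libraries, open points are LC 25 and LC 26, and black marks give the mean and SD of 3 mice. In 9 of the 10 panels LC 15 is the highest LC point, and in 5 panels all CMNKO points lie above all LC points.

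Mmp2, the gelatinase that digests denatured collagen and basement membrane collagen, had 67.1, 50.3 and 44.4 CPM in CMNKO 16, 17 and 18, against 42.0, 25.6 and 21.2 CPM in LC 15, 25 and 26. The groups did not overlap, and CMNKO 18 lay just above LC 15. Means were 54.0 ± 11.8 CPM in CMNKO mice and 29.6 ± 10.9 CPM in LC mice (SD, n = 3 each), a 1.83-fold difference with a 95% confidence interval of 1.27 to 2.64. On the log2 scale this was 0.87 with a standard error of 0.24, and the adjusted p was 0.112 by edgeR. With the series term the log2 fold change was 0.37 (95% confidence interval -0.12 to 0.85).

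Mmp14, the membrane-type activator of Mmp2, was read at low depth, with 64, 48 and 86 counts in CMNKO 16, 17 and 18, against 24, 11 and 40 counts in LC 15, 25 and 26. These counts came to 7.11, 6.71 and 10.8 CPM in CMNKO mice and 3.74, 1.77 and 5.24 CPM in LC mice, with no overlap between the groups. Its control order differed from that of the other 9 genes, since LC 26 and not LC 15 was its highest control. The fold change was 2.24 (95% confidence interval 1.34 to 3.75, log2 1.17 with a standard error of 0.34, adjusted p = 0.124 by edgeR). It was the member that moved least when the series term was added (log2 fold change 1.13, 95% confidence interval 0.073 to 2.19, unadjusted p = 0.0382, adjusted p = 0.610 by edgeR).

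Mmp15, another membrane-type metalloproteinase, had 48.2, 59.7 and 79.0 CPM in CMNKO 16, 17 and 18, against 69.4, 36.2 and 38.1 CPM in LC 15, 25 and 26. LC 15 lay above CMNKO 16 and CMNKO 17, so the groups overlapped. Its log2 fold change was 0.38 (standard error 0.25, 95% confidence interval -0.17 to 0.93, adjusted p = 0.419 by edgeR), and with the series term it was -0.16 (95% confidence interval -0.63 to 0.32).

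Timp3, the matrix-bound inhibitor, had 327, 233 and 264 CPM in CMNKO 16, 17 and 18, against 251, 149 and 92.0 CPM in LC 15, 25 and 26. LC 15 lay above CMNKO 17, while LC 25 and LC 26 lay below all CMNKO libraries. Means were 275 ± 47.6 CPM in CMNKO mice and 164 ± 80.4 CPM in LC mice (SD, n = 3 each), and the log2 fold change was 0.75 (standard error 0.29, 95% confidence interval 0.11 to 1.38, adjusted p = 0.207 by edgeR). With the series term the log2 fold change was 0.13 (95% confidence interval -0.39 to 0.65). In the GENCODE annotation Timp3 shares 1733 exonic bases with Syn3, a gene of the opposite strand, and no source used here says whether the counting used strand. Syn3 itself had 20, 19 and 14 counts in CMNKO mice and 14, 10 and 16 counts in LC mice, against 702 to 2938 counts for Timp3.

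Timp2, inhibitor and Mmp14 adaptor, had 87.6, 63.3 and 80.0 CPM in CMNKO 16, 17 and 18, against 74.7, 34.3 and 34.0 CPM in LC 15, 25 and 26. LC 15 lay among the CMNKO values, and LC 25 and LC 26 stood below all of them at nearly the same level. The log2 fold change was 0.70 (standard error 0.27, 95% confidence interval 0.10 to 1.29, adjusted p = 0.213 by edgeR). With the series term it was 0.045 (95% confidence interval -0.34 to 0.43). Without LC 15 it was 1.17, with the smallest adjusted p among the 10 genes in that fit (0.00056 by edgeR, 0.00056 to 0.984 over all alternatives).

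Timp4, an inhibitor with high expression in heart, was the most uneven of the 10 among LC mice relative to its mean. It had 69.0, 31.7 and 67.3 CPM in CMNKO 16, 17 and 18, against 78.1, 14.8 and 54.5 CPM in LC 15, 25 and 26. The highest and the lowest library were both controls, and the CMNKO values lay within the LC range. The log2 fold change was 0.19 (standard error 0.45, 95% confidence interval -0.81 to 1.18, adjusted p = 0.840 by edgeR). It was -0.47 with the series term and -0.24 without LC 25, so that its sign depended on which controls were used. Timp4 shares 90 exonic bases with Syn2, also of the opposite strand, which had 43, 21 and 32 counts in CMNKO mice and 28, 11 and 35 counts in LC mice.

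Timp1, the inhibitor that many tissues induce under injury, was read at very low depth. It had 34, 17 and 13 counts in CMNKO 16, 17 and 18, against 8, 6 and 9 counts in LC 15, 25 and 26. In CPM these were 3.78, 2.38 and 1.63 in CMNKO mice and 1.25, 0.965 and 1.18 in LC mice. The groups did not overlap, but CMNKO 18 lay close to LC 15. The fold change was 2.29 with a wide interval (95% confidence interval 1.24 to 4.23, adjusted p = 0.160 by edgeR). LC 15, 25 and 26 were close together in this gene. With the series term the log2 fold change was 1.06 (95% confidence interval -0.25 to 2.38), against 1.20 without it.

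Adamts2, the procollagen N-proteinase, had the smallest p of the 10 genes and ranked 225 of 13040. It had 21.9, 17.05 and 16.6 CPM in CMNKO 16, 17 and 18, against 13.1, 6.60 and 7.60 CPM in LC 15, 25 and 26. All CMNKO libraries lay above all LC libraries. Means were 18.5 ± 2.95 CPM in CMNKO mice and 9.10 ± 3.50 CPM in LC mice (SD, n = 3 each), a 2.04-fold difference with a 95% confidence interval of 1.40 to 2.97. The log2 fold change was 1.03 (standard error 0.25, adjusted p = 0.0880 by edgeR). By DESeq2 the adjusted p was 0.0113 (0.0012 to 0.686 over all alternatives), and with the series term in edgeR the log2 fold change was 0.50 (95% confidence interval -0.016 to 1.02).

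Adamts1 had 32.01, 30.2 and 23.2 CPM in CMNKO 16, 17 and 18, against 24.5, 17.4 and 17.4 CPM in LC 15, 25 and 26. Only CMNKO 18 lay below LC 15. The log2 fold change was 0.53 (standard error 0.19, 95% confidence interval 0.12 to 0.94, adjusted p = 0.172 by edgeR), the most narrowly estimated of the 10, and 0.22 with the series term.

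Reck, which is tethered to the cell surface and restrains several metalloproteinases, had 7.34, 5.59 and 6.65 CPM in CMNKO 16, 17 and 18, against 5.46, 2.25 and 2.10 CPM in LC 15, 25 and 26. The groups did not overlap, but CMNKO 17 and LC 15 differed by less than the spread among the CMNKO mice. The fold change was 2.02 (95% confidence interval 1.20 to 3.38, log2 1.01 with a standard error of 0.34, adjusted p = 0.159 by edgeR). With the series term the log2 fold change was 0.26 (95% confidence interval -0.41 to 0.93).

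**Figure D2:**
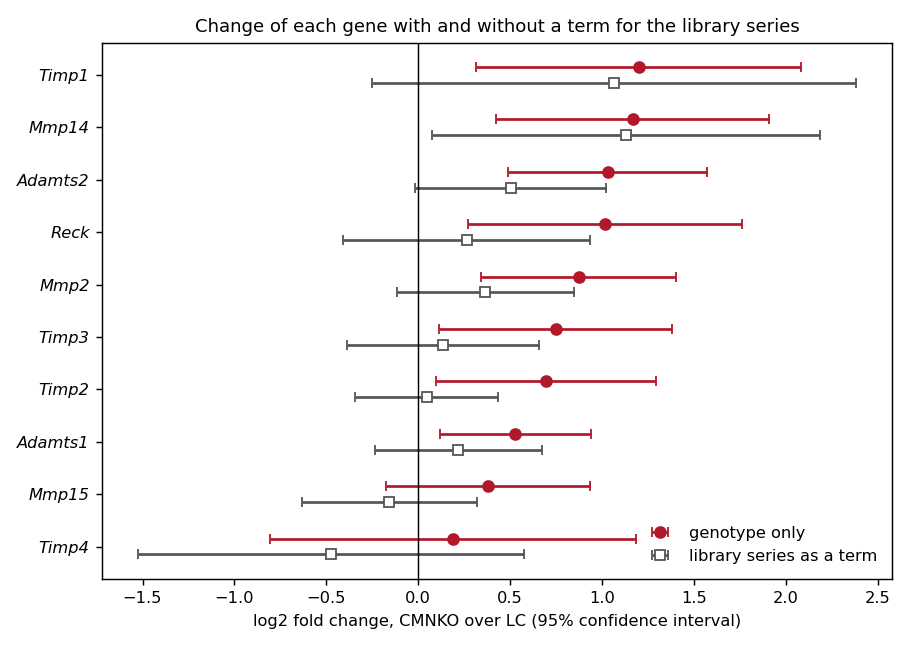
Log2 fold change of CMNKO over LC for each gene with its 95% confidence interval, ordered by size. Filled circles are the fit with genotype only, and open squares the fit with the series term. Mmp15 and Timp4 have intervals that include 0 in the first fit, and all genes except Mmp14 have them in the second.

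The genes also differed in how their levels ran over the 6 libraries. As a measure of likeness, the root mean square difference of log2 CPM was taken between 2 genes after each was centred on its own mean over the 6 libraries. All genes share the depth and series of these libraries, and the values are a description. Timp2 and Reck were the closest pair at 0.15, followed by Mmp2 and Adamts2 at 0.16 and Adamts2 and Reck at 0.17. Timp4 was at least 0.63 from each of the other 9 genes and Mmp14 at least 0.51. Outside the group, the genes with the profile most like that of Mmp2 were Zfp36 (0.040), Col16a1 (0.095) and Map6 (0.099), where the median over all tested genes was 0.60. For Timp3 the closest were Emilin1 (0.049) and Tgfbr2 (0.10), against a median of 0.65. These genes were picked as the closest of all tested genes, so values far below the median follow from the choice.

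The promoters of Adamts2, Reck, Timp2 and Timp4 are printed because the first 3 had closely similar profiles, while Timp4 stood farthest from the rest. Each is the 250 bases before the gene's start in RefSeq on GRCm38.p6, on the gene's own strand, at chr11:50601835-50602084 (plus strand) for Adamts2, chr4:43875280-43875529 (plus strand) for Reck, chr11:118355412-118355661 (minus strand) for Timp2 and chr6:115252206-115252455 (minus strand) for Timp4. Capitals mark a GC box (GGGCGG) or a CCAAT box (CCAAT) on either strand.
Adamts2: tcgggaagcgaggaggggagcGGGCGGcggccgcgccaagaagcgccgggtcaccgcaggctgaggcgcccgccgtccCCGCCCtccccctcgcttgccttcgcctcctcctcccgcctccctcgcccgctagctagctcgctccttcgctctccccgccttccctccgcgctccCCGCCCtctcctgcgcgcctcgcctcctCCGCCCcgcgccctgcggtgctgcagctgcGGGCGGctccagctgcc
Reck: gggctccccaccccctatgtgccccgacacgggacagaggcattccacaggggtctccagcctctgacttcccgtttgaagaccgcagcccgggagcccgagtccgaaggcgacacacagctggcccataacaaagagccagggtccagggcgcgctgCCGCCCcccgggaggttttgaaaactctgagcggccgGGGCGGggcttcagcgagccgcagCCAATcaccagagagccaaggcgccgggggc
Timp2: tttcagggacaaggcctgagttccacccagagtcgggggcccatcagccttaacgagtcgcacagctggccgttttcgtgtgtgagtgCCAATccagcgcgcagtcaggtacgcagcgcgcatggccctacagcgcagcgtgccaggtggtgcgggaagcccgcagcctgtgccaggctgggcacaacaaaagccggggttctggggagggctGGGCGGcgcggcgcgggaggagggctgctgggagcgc
Timp4: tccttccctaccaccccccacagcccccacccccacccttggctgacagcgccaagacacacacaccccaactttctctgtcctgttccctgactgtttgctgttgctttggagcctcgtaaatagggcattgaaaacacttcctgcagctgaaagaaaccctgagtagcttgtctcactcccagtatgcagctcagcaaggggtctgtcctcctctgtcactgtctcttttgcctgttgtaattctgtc

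The GC box, the letters bound by Sp family factors, occurred 5 times before Adamts2, 2 times before Reck, 1 time before Timp2 and 0 times before Timp4. Mmp14, whose profile also stood apart from the others, had 2 GC boxes, as Reck did. A link between these letters and the profiles was not tested. Of the 10 genes, 9 had an entry in the promoter table, and 8 of these 9 held at least 1 GC box, against 32.7% of all 32851 promoters of the same length. CCAAT was present in 4 of the 9, Mmp14, Timp1, Timp2 and Reck, against 33.8% of all promoters, and a TATA box (TATAAA) in 1, Adamts1, against 12.4%. The AP-1 letters (TGANTCA) were in 0 of the 9, against 6.75% of all promoters, and the MEF2 motif in 0, against 2.92%. GC content was 78.0% for Adamts2, 68.4% for Reck, 68.0% for Timp2 and 53.6% for Timp4, where the median of all promoters was 52.4%. Adamts2 was the highest and Timp4 the lowest of the 9, so all 9 lay above that median. The part of GC content in the GC box matches was not tested. These matches describe the letters in these windows and not binding.

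Levels of different genes were compared per kilobase of the longest annotated transcript. Timp3 was the highest of the 10 genes at 58.2 ± 10.1 CPM per kb in CMNKO mice and 34.7 ± 17.02 CPM per kb in LC mice (SD, n = 3 each). Timp2 came next with 20.7 ± 3.35 CPM per kb in CMNKO mice and 12.8 ± 6.32 CPM per kb in LC mice, then Mmp2 with 17.5 ± 3.83 and 9.61 ± 3.55 CPM per kb in CMNKO and LC mice. Mmp15 followed with 12.1 ± 3.03 CPM per kb in CMNKO mice and 9.33 ± 3.63 CPM per kb in LC mice, and Timp4 with 10.2 ± 3.83 and 8.95 ± 5.82 CPM per kb. Adamts1 had 5.83 ± 0.949 CPM per kb in CMNKO mice and 4.05 ± 0.837 CPM per kb in LC mice. Timp1, Adamts2 and Mmp14 lay close together at 2.94, 2.55 and 2.53 CPM per kb in CMNKO mice and 1.28, 1.25 and 1.11 CPM per kb in LC mice, and Reck was lowest at 1.43 and 0.719 CPM per kb. The order was the same in both genotypes. In LC mice only Timp3 and Timp2, and Adamts1 and Timp1, differed from their neighbour in this order by more than the SD of both. In CMNKO mice the neighbours within the SD of one or both were Timp2 and Mmp2, Mmp15 and Timp4, Timp1 and Adamts2, and Adamts2 and Mmp14. With the principal transcript, an alternative chosen after seeing the data, Mmp14 moved ahead of Timp1 and Adamts2 in CMNKO mice, at 3.16 CPM per kb.

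Within the inhibitor family the make-up of the transcripts is free of library scaling, since each library is set against itself. Timp3 took 67.1%, 70.5% and 64.0% of the counts of the 4 Timp genes in CMNKO 16, 17 and 18, against 61.9%, 74.9% and 50.6% in LC 15, 25 and 26. Timp2 took 17.99%, 19.2% and 19.3% in CMNKO mice, against 18.5%, 17.2% and 18.7% in LC mice. The Timp2 share thus varied little, and the exact 95% binomial intervals of all 6 libraries, which cover counting error only, contained a common range. Timp4 took 14.2%, 9.60% and 16.3% in CMNKO mice, against 19.3%, 7.44% and 30.0% in LC mice. LC 25 and LC 26 were at the opposite ends of that span, with exact 95% intervals of 6.04% to 9.04% in LC 25 and 27.6% to 32.5% in LC 26. Timp1 took 0.395% to 0.776% in CMNKO mice and 0.308% to 0.649% in LC mice.

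**Figure D3:**
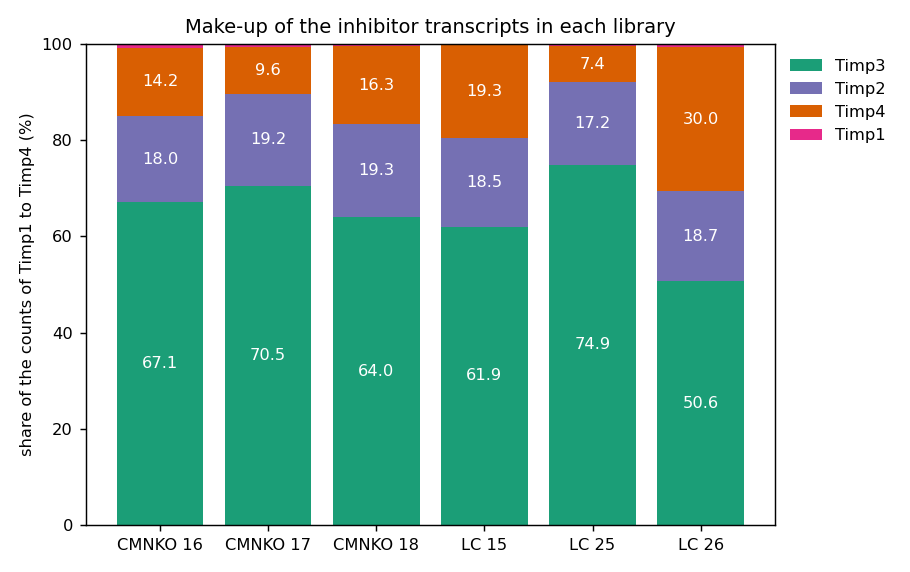
Share of each inhibitor in the summed counts of Timp1, Timp2, Timp3 and Timp4 in each library, in percent, with CMNKO libraries on the left. The Timp2 band is nearly constant at 17.2% to 19.3%, while the Timp4 band runs from 7.44% in LC 25 to 30.0% in LC 26.

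Ratios of proteinase to inhibitor within a library showed no separation of the genotypes. Mmp2 had 0.766, 0.795 and 0.556 counts per count of Timp2 in CMNKO 16, 17 and 18, against 0.562, 0.746 and 0.625 in LC 15, 25 and 26. On the log2 scale CMNKO minus LC was 0.12, within the SD of 0.28 in CMNKO mice and 0.21 in LC mice. Mmp14 had 0.0812, 0.106 and 0.135 counts per count of Timp2 in CMNKO mice, against 0.0501, 0.0516 and 0.154 in LC mice, and LC 26 was the highest of all 6. The difference for Mmp14 over Timp2 was 0.51, with an SD of 0.37 in CMNKO mice and 0.93 in LC mice. The log2 ratios of Timp1 to Timp4 and of Timp3 to Timp4 differed by 0.71 and 0.44, with overlapping groups in both and SDs in LC mice of 1.07 and 1.31. An exact permutation test of 3 against 3 mice cannot give a two-sided p under 0.10, and these ratios were not tested.

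Other genes of matrix proteolysis were taken as 8 lists of 87 genes, of which 72 were in the table and 57 were tested. By edgeR 0 of the 57 passed the adjusted test in either direction, and 10 (17.5%) were higher and 2 lower at an unadjusted p under 0.05, where 10.1% of all tested genes were higher. DESeq2 called 3, where it called 1.65% of all tested genes higher and 1.12% lower. Their median log2 fold change was 0.21, against 0.81 for the 10 genes described above, a difference given without a test. Of the other metalloproteinases 6 of 12 genes in the table had enough reads, and Mmp9, a gelatinase of white blood cells named after its values were seen, was removed with 4 counts in each CMNKO library and 1 or 2 counts in each LC library. Mmp23 had a log2 fold change of 1.01 (adjusted p = 0.110 by edgeR), with 7.89, 8.10 and 5.27 CPM in CMNKO mice and 4.68, 2.74 and 3.15 CPM in LC mice, and Mmp28 one of 1.04 (adjusted p = 0.213) with overlapping groups.

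The 9 other tested Adamts genes had a median log2 fold change of -0.02. Adamts7 had 21.2, 27.7 and 25.99 CPM in CMNKO mice, against 42.3, 37.2 and 29.0 CPM in LC mice. All CMNKO libraries thus lay below all LC libraries, the opposite order to Adamts2, with a log2 fold change of -0.53 (adjusted p = 0.150 by edgeR). Adamts9 had a log2 fold change of 0.29. Of the Adamts-like proteins, which share domains with this family but lack the protease, Papln had 13.8, 13.6 and 13.4 CPM in CMNKO mice, against 6.55, 8.37 and 5.11 CPM in LC mice. Its log2 fold change was 1.03 in the main fit (adjusted p = 0.0513 by edgeR) and 1.05 with the series term, and that of Adamtsl2 was 0.81 (median of the 6 genes of this list 0.50). Among 8 Adam genes, whose median was 0.20, Adam15 had a log2 fold change of 0.71 (adjusted p = 0.0590 by edgeR) and Adam22 one of -0.63, each with the groups apart.

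Of the genes that activate or clear metalloproteinases, all 9 tested had positive log2 fold changes with a median of 0.21. Lrp1, the endocytic receptor that takes up metalloproteinases and their inhibitors, had 120, 104 and 106 CPM in CMNKO 16, 17 and 18, against 106, 48.1 and 47.5 CPM in LC 15, 25 and 26. As in Timp2, LC 15 lay among the CMNKO values and LC 25 and LC 26 below them. The log2 fold change was 0.71 in the main fit and 0.058 with the series term. Pcsk6, a proprotein convertase, had log2 fold changes of 0.62 and -0.048 in these 2 fits. In the plasminogen system, with a median of 0.24 over 6 genes, the activator Plat had a log2 fold change of 0.61 (adjusted p = 0.110 by edgeR). Its groups were apart, and its series-term value was 0.48. Cathepsins and cystatins had a median of -0.07 over 9 genes, with 0.63 for Ctsz and 0.37 for Ctss. Procollagen processing genes had a median of 0.49 over 4 genes, with 0.65 for Pcolce, an enhancer of procollagen C-proteinase, and 0.88 for Tll2.

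The matrix substrates of these enzymes were taken as a further list. Of 15 tested matrix substrates 0 passed the adjusted test by edgeR, 11 were higher at an unadjusted p under 0.05, 11 had all CMNKO libraries above all LC libraries, and the median log2 fold change was 0.90 (0.37 with the series term). Fn1, the adhesive glycoprotein fibronectin, had 36.9, 27.2 and 32.1 CPM in CMNKO mice, against 20.4, 10.1 and 12.7 CPM in LC mice (log2 fold change 1.16, adjusted p = 0.0572 by edgeR). Col4a1, a basement membrane collagen chain, had 314, 297 and 292 CPM in CMNKO mice, against 187, 77.4 and 142 CPM in LC mice (log2 fold change 1.15, adjusted p = 0.0681 by edgeR). The shares over all tested genes were 10.1% for the unadjusted threshold and 11.2% for groups apart. DESeq2 called 8 of the 15, where it called 1.65% of all tested genes higher. The substrates that follow are named for their role, after their values were seen. Col1a1, whose propeptide Adamts2 removes, had 43.4, 40.1 and 33.4 CPM in CMNKO mice, against 27.9, 6.92 and 17.04 CPM in LC mice. Vcan, the versican cut by Adamts1, had 14.1, 8.10 and 10.2 CPM in CMNKO mice, against 4.68, 5.15 and 6.55 CPM in LC mice. In Vcan LC 15 was the lowest control, unlike in Adamts1.

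**Figure D4:**
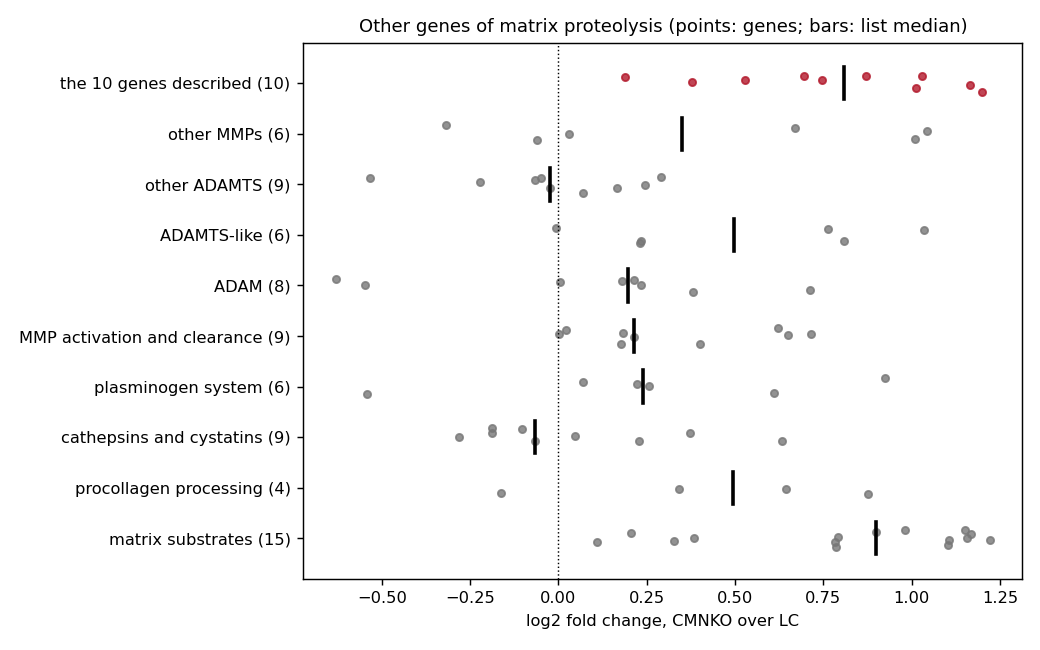
Log2 fold change of CMNKO over LC for the tested genes of each list, with the number of genes in brackets. Points are genes, red for the 10 genes described and grey for the others, and black bars are list medians, 0.81 for the 10 genes, 0.90 for matrix substrates and -0.07 to 0.50 for the other lists.

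Markers of the cells that a ventricle holds were summed in each library. Fibroblast markers summed to 1335 to 1854 CPM in CMNKO libraries and 761 to 1510 CPM in LC libraries, and in LC 25 and LC 26 they stood at 0.504 and 0.517 of the LC 15 sum. Most of this sum was Gsn, and the other 9 markers, an alternative chosen after seeing the data, stood at 0.784 and 0.766 of the LC 15 sum, where the 10 genes stood at 0.513 and 0.486. The median of LC 25 and LC 26 minus LC 15 on the log2 scale was -0.42 over the fibroblast markers, against -0.88 over the 10 genes. Of the 10 fibroblast markers, 1, Pi16, passed the test (log2 fold change 0.96, adjusted p = 0.0163 by edgeR), 0 were lower, and the median log2 fold change was 0.38. Smooth muscle and pericyte markers summed to 982 to 1318 CPM in CMNKO libraries and 579 to 808 CPM in LC libraries, with a median of 0.68, and 1 of 10, Acta2, passed the test (log2 fold change 2.00, adjusted p = 0.0195 by edgeR). Without Acta2, also chosen after seeing the data, the other 9 summed to 591 to 620 CPM in CMNKO libraries and 452 to 670 CPM in LC libraries, and LC 15 lay above every CMNKO library. The largest part of that sum was Abcc9, with 208, 218 and 218 CPM in CMNKO mice and 298, 258 and 220 CPM in LC mice. Abcc9 was the 1 marker of these 10 with a negative log2 fold change (-0.27), and sums without it were not taken. Endothelial markers had 0 of 10 called, a median of 0.35 and sums of 1397 to 1641 CPM in CMNKO and 1169 to 1378 CPM in LC libraries. Macrophage markers had 0 of 9 called, a median of 0.44 and sums of 338 to 484 CPM in CMNKO and 282 to 325 CPM in LC libraries. Cardiomyocyte markers, which define the labelled tissue, had 0 of 10 called and a median of -0.05. At an unadjusted p under 0.05 by edgeR 3 of them were lower and 1 higher, where 2463 of 13040 tested genes had such a p in either direction. Their sums were 70021 to 76379 CPM in CMNKO and 65074 to 80977 CPM in LC libraries. The largest part was Myh6, with 24796, 24999 and 30605 CPM in CMNKO mice and 31113, 16153 and 17153 CPM in LC mice. Sums without Myh6 were not taken. Adipocyte markers were too low to test, with 212, 76 and 8 summed counts in CMNKO 16, 17 and 18, against 13, 0 and 0 in LC 15, 25 and 26. Blood, atrial and mesothelial markers had 0 of 5, 0 of 2 and 0 of 1 tested genes called. The part of these markers in the values of the 10 genes was not tested.

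**Figure D5:**
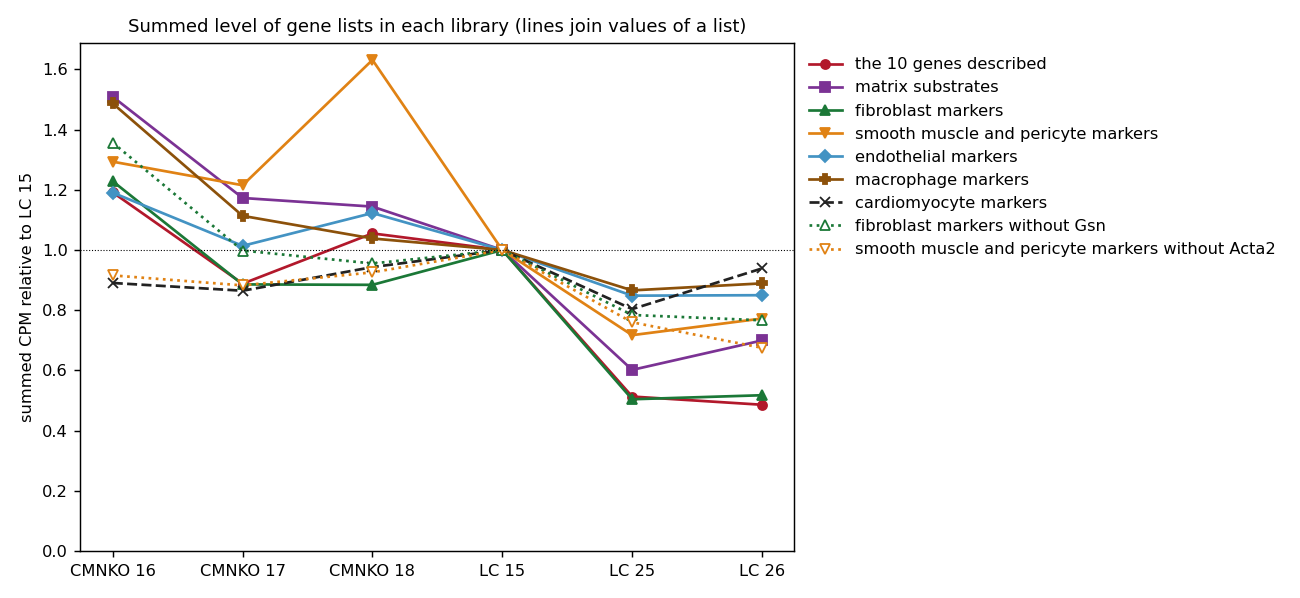
Summed CPM of the 10 genes, of matrix substrates and of cell type markers in each library, divided by the value in LC 15, with CMNKO libraries on the left. Lines only join the values of a list. Open symbols leave out Gsn or Acta2. In LC 25 and LC 26 the 10 genes are at 0.513 and 0.486. Fibroblast markers are at 0.504 and 0.517 there with Gsn, and at 0.784 and 0.766 without it. Cardiomyocyte markers, with Myh6 as the largest part of their sum, are at 0.804 and 0.939.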

How the data were processed

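RNA of left ventricles of 3 CMNKO and 3 LC mice was extracted with TRIzol, prepared by TruSeq technology and sequenced by Illumina technology. Reads were aligned by the authors to the mouse build mm8, as the submitters' notes give it, and raw whole-number counts were deposited for each gene in each mouse, with no normalization. The aligner and counting step: not given in the sources used here. Also deposited, and not used, were the authors' normalized group means, fold changes and FDR values. Unused per-sample columns: 0.

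The analysis of counts used edgeR 4.0.16 in R 4.3.3. In it filterByExpr kept 13040 of 17121 genes, libraries were scaled by TMM, quasi-likelihood models were fitted with genotype as the only term, and p-values were adjusted over all tested genes by Benjamini-Hochberg at 0.05. Alternatives used DESeq2 1.42.0, limma-voom (limma 3.58.1), other scalings and filters, the library series as a term and each mouse left out. The code was tested on simulated data. Transcript lengths and overlaps came from GENCODE vM21 and promoters from RefSeq (GRCm38.p6), both matched by gene symbol, since the counts use another build. Depth was 6319488 to 8752609 counts per mouse. The p-values measure the spread between mice, which in the fit with genotype only includes the difference between the library series among LC mice. With the series term LC 15 is assumed to vary like the others. The 10 genes, the lists, the tests and the rule for naming genes were chosen with earlier results of these data known. The rule takes the 10 genes, the 2 genes of each other list with the smallest p and any past the test. For marker lists only genes past the test are named, and also Gsn, which did not pass but made up most of the fibroblast sum. Myh6 and Abcc9 are named after their values were seen, for their large part in a marker sum. Some genes that the rule takes are not reported here.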

Additional observations from a re-analysis of the deposited data

How the results depend on the processing

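Over all alternatives for the 10 log2 fold changes, 126 kept their direction and their side of the adjusted threshold of 0.05, 11 passed it where the fit reported above did not, and 3 changed sign. Those that changed sign were Mmp15 at -0.16 and Timp4 at -0.47 with a term for the library series, and Timp4 at -0.24 without LC 25 (-0.24 to 0.67 with 1 mouse left out). The number of the 10 genes past the test was 3 by DESeq2, against 0 by edgeR, and 0 to 8 with 1 mouse left out. The number with an unadjusted p under 0.05 was 1 with a term for the library series, against 8, and 4 to 9 with 1 mouse left out. The 9 came from the fit without LC 15, where 4736 of 13495 tested genes had such a p in either direction. In the fit reported above 2463 of 13040 had one. The number with the groups apart was 5 to 9 with 1 mouse left out, the 9 again without LC 15. Groups of fewer mice lie apart more easily. The share of all tested genes with groups apart was not taken with a mouse left out. The median log2 fold change of the 10 genes was 0.24 with a term for the library series, against 0.81, and 0.59 to 1.18 with 1 mouse left out, the highest without LC 15.

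Of the 8 other protease lists 2 genes passed with upper-quartile scaling, 3 by DESeq2, 1 by limma-voom and 1 with no filter. With 1 mouse left out 0 to 14 passed, the 14 without LC 15. Of the matrix substrates 2 passed with upper-quartile scaling, 8 by DESeq2, 1 by limma-voom and 0 to 13 with 1 mouse left out, the 13 also without LC 15. In the fit without LC 15 genotype and library series cannot be told apart. There 11.8% of all tested genes were called higher and 7.67% lower. Over all genes 35 were higher and 44 lower in CMNKO mice. These became 59 and 69 with upper-quartile scaling, 215 and 146 by DESeq2, 2 and 20 with a term for the library series, and 0 to 1589 and 0 to 1035 with 1 mouse left out. The number lower was 20 with library totals only, a scaling that moved the median log2 fold change of all genes to 0.12. The cause was not tested where a call depended on the tool or scaling. Leaving out a mouse leaves fewer samples, and the series term leaves LC 15 as the only control. Of the 10 genes Timp1, Mmp14 and Reck had the fewest counts. No paired analysis was possible because CMNKO and LC mice share no mouse numbers.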

Other observations

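Adamts8, a proteinase of the Adamts family, was left out of the test by the filter on low counts and is named here after its values were seen. It had 19, 7 and 11 counts in CMNKO 16, 17 and 18, against 1, 2 and 0 counts in LC 15, 25 and 26, so that the groups did not overlap. In a fit with no filter its log2 fold change was 3.21 (standard error 0.73, adjusted p = 0.0786 by edgeR). Over the alternatives that kept the gene the adjusted p by edgeR ran from 0.0221 without LC 15 to 0.198 without CMNKO 17. Without LC 15 genotype and library series cannot be told apart. Where a filter was used, only the CMNKO libraries had enough counts to keep the gene, so these p-values are a description and not support.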
